A study of Drosophila melanogaster with 20 samples.

Results

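The comparison set 5 I172G libraries against 5 P223L libraries of whole fruit fly larvae (Drosophila melanogaster), 10 of the 20 libraries of the series. I172G larvae carried the genotype DmSAMC.I172G, a single amino acid change that the labels call mild. P223L larvae carried DmSAMC.P223L, a single amino acid change that the labels call severe. Both were genomically engineered lines in the wDah genetic background, as were the 5 control libraries (genotype control) and the 5 SAMC-null libraries (genotype DnSAMC.M1fs;M39*, called severe), which are given here only beside the compared lines. All larvae were 4 days old and kept at 25 °C on a yeast, sugar and agar medium. Total RNA was depleted of ribosomal RNA and sequenced. The libraries were chosen by their labels, and the genes by their level: of 14081 genes in the deposited tables, 12029 reached a value of 10 in 5 or more of the 10 compared libraries and were tested. Values are normalised counts on 1 scale shared by all libraries, and every log2 fold change is I172G minus P223L on log2(value + 1), so a positive one is a level higher in I172G. That scale understates the change of genes with low values.

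The gene in question encodes a carrier of the inner mitochondrial membrane that takes S-adenosylmethionine (SAM), the general methyl donor of the cell, from the cytosol into mitochondria in exchange for S-adenosylhomocysteine. Inside mitochondria SAM is used to methylate RNA, proteins and coenzyme Q intermediates, and it is a cosubstrate of lipoate synthase, an enzyme with iron-sulfur clusters. SAM is made in the cytosol from methionine, and its demethylated product is cleared through homocysteine, which is either methylated back to methionine or passed to cystathionine. Insect larvae grow through moults set by the steroid ecdysone. In the fruit fly the last larval stage, the third instar, is when the fat body fills the blood with larval serum proteins, the salivary glands prepare the glue of the pupa, the imaginal discs proliferate, and male gonads hold large numbers of spermatocytes.

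Whether a line's 5 libraries came from separate cultures is not stated in the labels, so the p-values measure only the spread between these libraries. The labels give no more than the genotype of each line, and the carrier mutations cannot be told apart from anything else that distinguishes the lines. Because whole larvae were sequenced, fewer cells of a type and less RNA per cell cannot be told apart either. The summed normalised counts were 32994074 to 36610401 per library in I172G and 24787115 to 26077354 in P223L, and the 10 most abundant genes held 23.7 to 25.5% of them in I172G and 17.4 to 20.8% in P223L. Genes are not independent replicates; across those tested, Pearson's r was 0.978 to 0.99 among I172G libraries, 0.987 to 0.99 among P223L libraries and 0.764 to 0.804 between the lines. The SD of a gene on the log2 scale had a median of 0.17 in I172G and 0.12 in P223L, and it was larger in I172G for 7771 genes (64.6%).

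Most of the transcriptome differed between the mild and the severe line. A total of 5158 genes (42.9% of those tested) were called higher in I172G and 4567 (38%) lower, at a limma adjusted p under 0.05. Together these were 9725 genes, or 80.8%, so a share of a gene list near 80.8% called, or near 42.9% and 38% in the directions, is the background of this comparison. Many differences were small: 52.3% of the called genes differed by less than 2-fold. At least 2-fold differences were found for 2724 genes higher in I172G (22.6%) and 1911 genes lower (15.9%). Every I172G library lay above every P223L library for 4530 genes (37.7%) and below every one for 3967 (33%). The largest differences were one-sided, with 690 called genes at least 16-fold higher in I172G and 76 at least 16-fold lower. The median log2 fold change over all tested genes was 0.05, with a median standard error of 0.10. The summed counts were larger in I172G, so the scale matters for small differences. With each library set to the same sum, a scaling added after the data were seen, the median was -0.39, and 3405 genes (28.3%) were called higher and 6775 (56.3%) lower, so that 33.5% of the calls were higher in place of 53%. The median of 9 of the 53 gene lists changed sign under it. Counts with equal library sums are given below where they differ in direction, or by more than 1.5 times and more than 1 gene. Smaller changes are left out. Of the tested genes, 728 reached 10 in I172G alone and 91 in P223L alone, and these had to differ. Some lists hold such genes without a number given below. Below 10 in every P223L library were 1 lysozyme, 2 histone copies and 1 tricarboxylic acid cycle gene. So were 1 ecdysone synthesis gene, 2 ecdysone response genes and 2 cytochrome P450 genes. Below 10 in every I172G library were 1 insulin and starvation gene and 1 gene of the tissue damage list.

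**Figure D1:**
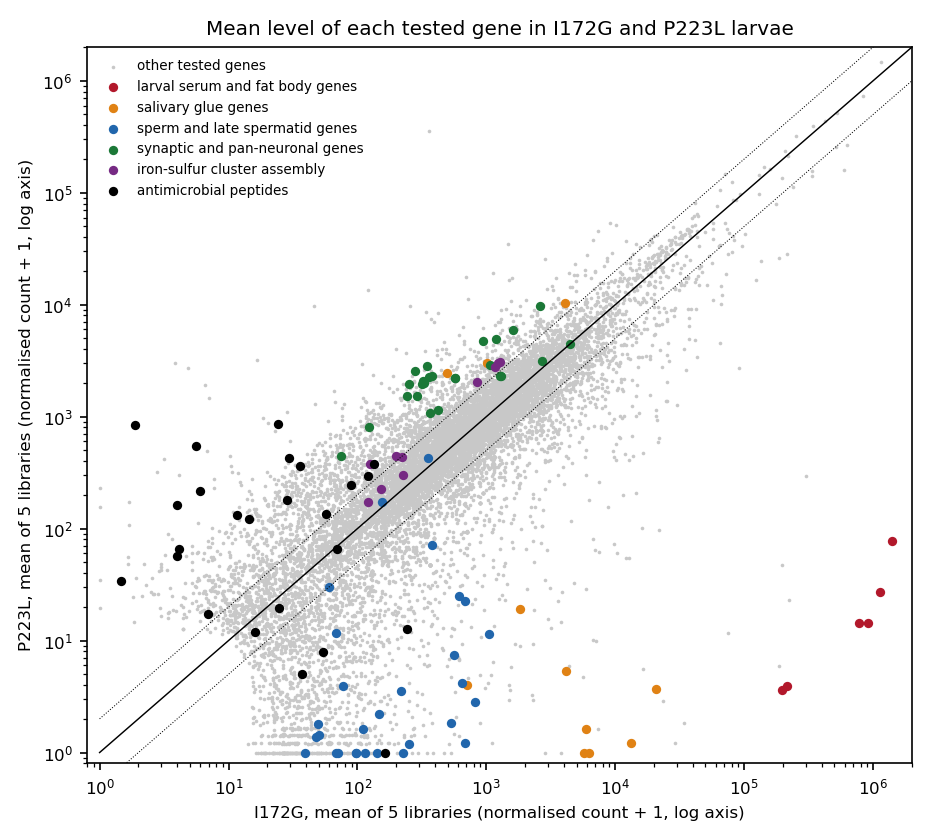
Each point is a tested gene, at its mean normalised count plus 1 in the 5 I172G libraries (horizontal log axis) and in the 5 P223L libraries (vertical log axis). The solid line marks equal levels and the dotted lines 2-fold differences, and coloured points are members of 6 gene lists. The 6 larval serum and fat body genes lie at the lower right, with means of up to 76.8 in P223L, while most synaptic genes and most antimicrobial peptides lie above the upper dotted line.

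Transcripts at 0 in 1 line were counted among all 14081 genes. In P223L, 505 genes were listed at 0 in all 5 libraries, of which 200 had a mean of at least 10 in I172G. In I172G, 190 genes were listed at 0 in all 5 libraries, and 7 of these had a mean of at least 10 in P223L. Among the 505 were Sgs5, CG7587 (Sgs5bis in the annotation), CG7606, CG44956 (Sgsf in the annotation) and CG34193, the 5 with the highest means in I172G, though CG34193 rested on 1 library, I172G replicate 1, with 3913 normalised counts against 4.77 to 16.8 in the other 4. The glue gene Sgs5 had 3139, 6101, 4247, 4953 and 12727 normalised counts in I172G and was listed at 0 in every P223L library. Of the genes listed at 0 in I172G, CG42815 was the highest in P223L, with 187, 229, 227, 231 and 282 normalised counts. No fold change is given for genes at 0 in a line.

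The SAM carrier transcript itself, CG4743 (FBgn0039357; chromosome 3R, 25679242 to 25680550) in the BDGP 6.54 annotation, was present in both lines. It had 144, 159, 199, 191 and 166 normalised counts in I172G larvae, against 249, 196, 184, 200.2 and 205 in P223L larvae. The ranges overlapped, with I172G replicates 3 and 4 inside the P223L range. The log2 fold change was -0.27 ± 0.11 (SE), with a limma adjusted p = 0.0405, and the call was lost without I172G replicate 1, 2 or 5 or P223L replicate 1, 2, 4 or 5 (limma adjusted p = 0.0506 to 0.105) and with a replicate block (limma adjusted p = 0.0913). Control larvae averaged 125 ± 20.2 and SAMC-null larvae 112 ± 12.8 (SD, n = 5 each). The level checks no label, since all 3 mutant alleles are changes within the gene that need not alter its transcript. Around the carrier gene, within 3 Mb on either side, 39.5% of 638 tested genes were called with at least a 2-fold difference, against 38.6% of 11174 genes elsewhere.

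The largest increases were in genes of the fat body of late larvae. All 6 larval serum and fat body genes were higher in I172G, with a median log2 fold change of 16.25, against 42.9% of all tested genes called higher and a median of 0.05. Of these, 2 stayed below 10 in every P223L library and were tested through I172G alone. They made up 13.4 ± 0.467% of the summed normalised counts in I172G and 0.00053 ± 0.000436% in P223L (SD, n = 5). Lsp2, a storage protein of the hemolymph (Lsp2 (FBgn0002565; chromosome 3L, 12129393 to 12131869)), had 726368, 757484, 805578, 779874 and 816836 normalised counts in I172G larvae, against 3.31, 2.23, 9.83, 44.7 and 6.63 in P223L larvae. The lines did not overlap, and the lowest I172G library held 16246 times the level of the highest P223L library. Its log2 fold change was 16.43 ± 0.54 (SE), with a limma adjusted p = 3.03e-11, and 17.02 without P223L replicate 4. Lsp1alpha, a subunit of the other larval serum protein, had 855223, 929908, 932909, 983552 and 894989.8 normalised counts in I172G larvae, against 2.2, 3.32, 20.8, 35.1 and 4.69 in P223L larvae. Fbp1, the receptor that takes these proteins back into the fat body, had 103829.7 to 393563 normalised counts in I172G, against 0 to 4.42 in P223L, a log2 fold change of 15.79 ± 0.45. P223L replicate 4 was the highest P223L library for Lsp1alpha, Lsp2 and Lsp1gamma, while still far under every I172G library. In control, Lsp2 averaged 610563 ± 65088, and in SAMC-null 6.58 ± 2.72 (SD, n = 5).

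Other genes with the largest increases were Obp99b, an odorant-binding protein, with 171846 to 214765 normalised counts in I172G, against 1.08 to 16.5 in P223L, and CG17105, with 21802 to 34825 normalised counts in I172G, against 0 to 1.07 in P223L. The larval cuticle genes Lcp9 and Lcp65Ab1 had log2 fold changes of 14.56 ± 0.40 and 13.89 ± 0.80, the second being 12.93 without P223L replicate 2. Lcp65Ab1 has a near-identical neighbouring copy, and how the reads were split between the copies is not given in the sources used here.

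Glue genes of the salivary gland were higher in I172G for 8 of 11 tested members, of 12 in the tables, and lower for 3. Of the tested members, 7 stayed below 10 in every P223L library and entered the test through I172G alone, so they had to differ. Sgs3, a major glue protein gene, had 4091, 5861, 3585, 4399 and 11750.4 normalised counts in I172G larvae, against 0, 0, 0, 3.1 and 0 in P223L larvae. Only P223L replicate 4 held any Sgs3 signal, and no P223L value came near an I172G value. Eig71Ee, an ecdysone-induced gene also made in salivary glands, had 8514 to 21182 normalised counts in I172G, against 0 to 1.03 in P223L. The 3 genes that were lower belong to the new glue genes. Of these, ng2 had 353 to 574 normalised counts in I172G, against 2106 to 2851 in P223L, a log2 fold change of -2.32 ± 0.12 (SE), with a limma adjusted p = 1.99e-09, and ng1 and ng3 had -1.58 and -1.33. Sgs3 averaged 1635 ± 1149 in control, and ng2 791 ± 258 (SD, n = 5). The labels give no stage beyond the age of 4 days, so a difference in developmental stage and the genotype cannot be told apart for these or any other genes below.

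Cuticle proteins differed in both directions. Of the Lcp larval cuticle proteins, 10 of 14 tested were higher and 4 lower, and of the Cpr family, 27 of 47 tested were higher and 15 lower, of 70 in the tables. Below 10 in every P223L library were 2 of the tested Lcp and 5 of the tested Cpr genes. Below 10 in every I172G library were 3 of the tested Cpr genes, among them Cpr62Bb, named below. These members were tested through the other line alone and had to differ. Lcp4 had 252542, 288405, 326348, 333416 and 301949 normalised counts in I172G larvae, against 352, 282, 299, 295 and 254 in P223L larvae. All I172G libraries stood far above all P223L libraries: the lowest I172G library held 718 times the level of the highest P223L library. Lcp65Ag3 went the other way, with 207 to 1307 normalised counts in I172G, against 15927 to 19241 in P223L, a log2 fold change of -4.88 ± 0.35 (SE), with a limma adjusted p = 4.06e-08. In the Cpr family, Cpr47Ec had 12073 ± 3941 normalised counts in I172G and 53.6 ± 10.8 in P223L (SD, n = 5), and Cpr62Bb, singled out after its values were seen, had 0.681 ± 0.622 normalised counts in I172G and 107 ± 5.71 in P223L. Of the Tweedle cuticle proteins, 3 of 12 tested members were higher and 5 lower, of 26 in the tables. Of the tested members, 2 stayed below 10 in every I172G library, TwdlN among them. Twdlbeta was the 1 below 10 in every P223L library, and these members had to differ. TwdlO had 1.13 to 18.3 normalised counts in I172G, against 1722 to 2121 in P223L and TwdlN had 2.26 to 9.67 normalised counts in I172G, against 1136 to 1803 in P223L, which put both among the 10 largest decreases, while Twdlbeta had 63.2 to 102 normalised counts in I172G, against 0 to 4.34 in P223L. Among 15 tanning and pigment genes, 6 were higher and 3 lower (5 without I172G replicate 1; 5 higher and 5 lower with equal library sums): yellow-e had a log2 fold change of 4.97 ± 0.09, and y, the yellow gene of dark cuticle pigment, one of -5.33 ± 0.31.

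**Figure D2:**
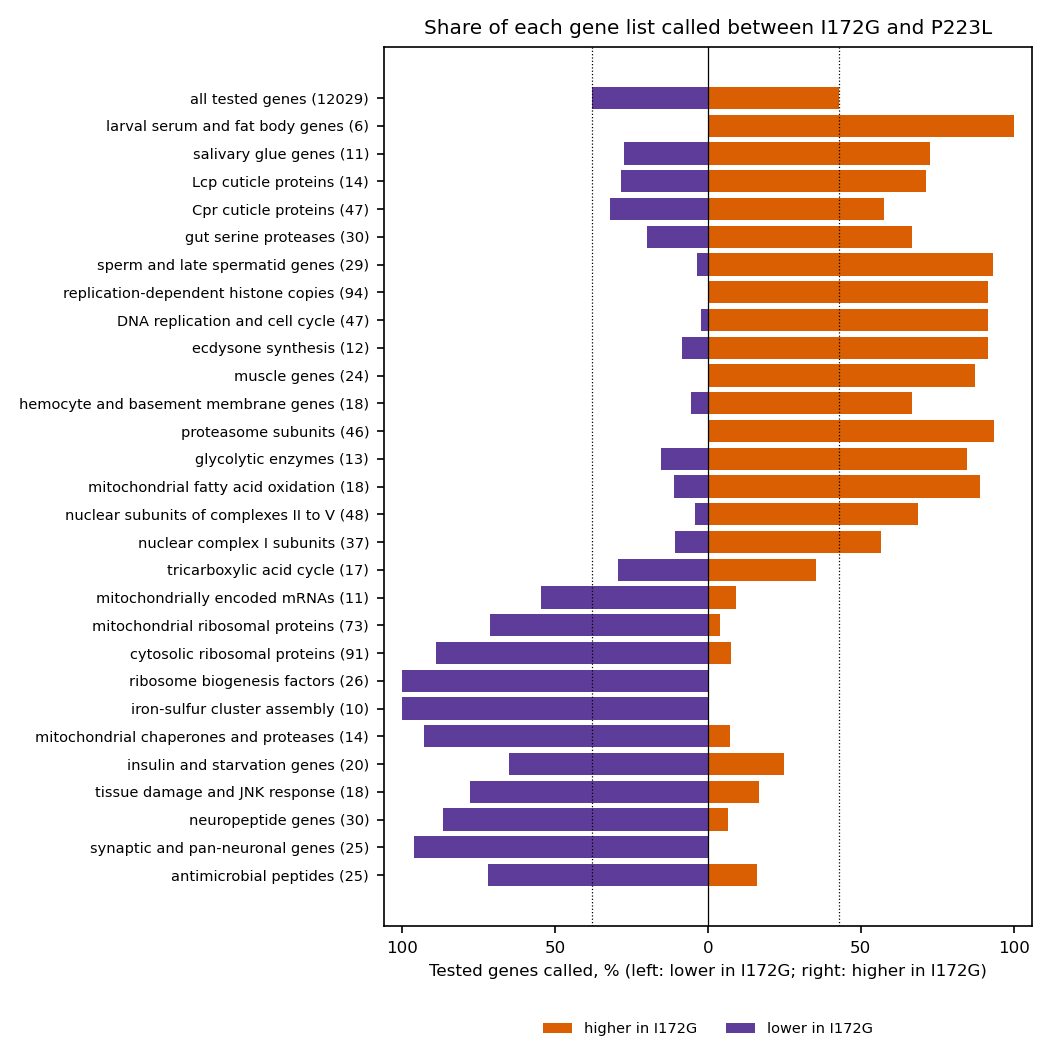
Bars give the share (%) of the tested members of each gene list called higher in I172G (right, orange) or lower in I172G (left, purple), with the number tested in brackets. Dotted lines mark the shares over all 12029 tested genes, 42.9% higher and 38% lower. The iron-sulfur cluster and ribosome biogenesis lists were called lower in every tested member, and the larval serum list was called higher in every one.

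Serine proteases, lipases and lysozymes of the gut were mostly higher in I172G. Over all tested genes, 42.9% were called higher and 38% lower. Among trypsin-like and Jonah serine proteases, 20 of 30 tested members were higher and 6 lower (median 1.76). Jon66Ci had 75462 to 104111 normalised counts in I172G, against 2221 to 3208 in P223L, a log2 fold change of 5.05 ± 0.11 (SE), with a limma adjusted p = 1.07e-12, and Jon25Biii had 111267 to 135784 normalised counts in I172G, against 15973 to 17201 in P223L. The trypsin gene alphaTry stood against them, with 1307, 1529.7, 1433, 1279 and 1851 normalised counts in I172G larvae, against 37700.1, 35617, 29843, 30828 and 40065 in P223L larvae. Every P223L library held more than every I172G library, and the log2 fold change was -4.56 ± 0.11 (SE), with a limma adjusted p = 2.16e-12. Jonah and trypsin genes include close paralogs between which reads may have been split. Of the lipases, 9 of 15 tested were higher and 4 lower. The lipase mag (magro) had 64727 ± 5554 normalised counts in I172G and 4517 ± 359 in P223L, while CG6296 had 394 ± 94.2 normalised counts in I172G and 6986 ± 895 in P223L (SD, n = 5), a log2 fold change of -4.18 ± 0.16. In control, CG6296 averaged 28949 ± 6007, above both lines. Of 6 tested lysozymes, 5 were higher, LysB by a log2 fold change of 5.32 ± 0.22, and LysX was lower at -2.16 ± 0.54. Maltases and amylases were split, with 6 of 13 higher (46.2%) and 4 lower (30.8%), near those shares (3 higher and 8 lower with equal library sums).

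Fat storage and fatty acid synthesis genes were higher for 12 of 20 members (60%) and lower for 6 (30%), with a median of 0.57. Over all tested genes, 42.9% were higher and 38% lower. apolpp, the lipoprotein that carries lipid in the hemolymph, had 549312 to 619751 normalised counts in I172G, against 157854 to 164266 in P223L, and Lsd-1, a perilipin of the lipid droplet, had 6039.6 to 6828 normalised counts in I172G, against 2101 to 2440.1 in P223L. With equal library sums the list had 9 higher and 8 lower, while 28.3% of all tested genes were called higher and 56.3% lower. The log2 fold changes of both genes were 1.89 ± 0.08 and 1.52 ± 0.05. SREBP, the transcription factor of lipid synthesis, was lower at -0.86 ± 0.04.

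Genes of proliferation were higher in I172G. Of 47 DNA replication and cell cycle genes, 43 (91.5%) were called higher, against 42.9% of all genes, and 1, the checkpoint kinase gene Bub1, lower at -0.25 ± 0.05 (35 higher and 4 lower with equal library sums). The median was 1.57. stg (string), the Cdc25 phosphatase that starts mitosis, had 913, 955, 1003, 869 and 969.5 normalised counts in I172G larvae, against 51.9, 51.1, 58, 64.7 and 58.2 in P223L larvae. The 2 ranges were far apart, since the lowest I172G library held 13.4 times the level of the highest P223L library, and the log2 fold change was 4.03 ± 0.08 (SE), with a limma adjusted p = 8.18e-13. The mitotic cyclin CycB had 684 to 882 normalised counts in I172G, against 45.9 to 65.6 in P223L, CycA 989 to 1119.9 normalised counts in I172G, against 145 to 184 in P223L, and the mitotic kinase polo 1039 to 1267 normalised counts in I172G, against 89.3 to 124 in P223L. Of 94 tested histone gene copies, 86 were higher and 0 lower, with a median of 2.51 (80 higher and 2 lower with equal library sums). The copies have near-identical sequences and share reads, so they are not separate measurements. The 4 His4 copies with the smallest adjusted p all had a log2 fold change of 2.19.

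Imaginal disc and eye patterning genes did not share that direction. Of 34, 15 were higher (44.1%) and 12 lower (35.3%), shares near the background of 42.9% and 38% (11 higher and 16 lower with equal library sums). Higher were eya, needed for the eye field, with 249 to 353 normalised counts in I172G, against 67.2 to 85.6 in P223L, and rn (rotund), a gene of leg and wing patterning, with 217 to 253 normalised counts in I172G, against 34.1 to 39.7 in P223L. ato, the proneural gene of the photoreceptors, had 46.4, 52, 36.6, 52.4 and 38.3 normalised counts in I172G and was listed at 0 in all P223L libraries. nub, a wing and neuroblast transcription factor, had 406, 498, 422, 475 and 467 normalised counts in I172G larvae, against 2224, 2213, 2223, 2247 and 2542 in P223L larvae. It was lower in every I172G library than in any P223L library, with a log2 fold change of -2.34 ± 0.07 (SE), with a limma adjusted p = 9.17e-12.

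Genes of spermatogenesis were higher in I172G. Of 29 tested sperm and late spermatid genes, of 30 in the tables, 27 were higher and 1, the mitochondrial fusion gene fzo, was lower at -0.27 ± 0.11, a call lost without I172G replicate 2, 3 or 4 or P223L replicate 3, 4 or 5, with a replicate block and with all 4 groups in 1 fit (limma adjusted p = 0.0947). Of these, 19 stayed below 10 in every P223L library and so entered the test through I172G alone, and 8 were listed at 0 in all of them. ocn (ocnus), a sperm protein gene, had 299.6, 168, 183, 222 and 249 normalised counts in I172G and was listed at 0 in every P223L library. S-Lap7, a sperm leucyl aminopeptidase, had 467 to 923 normalised counts in I172G, against 0 to 1.09 in P223L. Of 9 tested regulators of the spermatocyte program, 6 were higher and 0 lower, with aly at 39.5 ± 15.4 normalised counts in I172G and 0.672 ± 0.613 in P223L (SD, n = 5) and topi at 99.3 ± 26.7 normalised counts in I172G and 98.7 ± 13 in P223L. Of these 9, 3 stayed below 10 in every P223L library and so had to differ, and with a filter of 50 only 2 were called higher. The 7 tested genes of the Y chromosome were higher in I172G, but 6 stayed below 10 in every P223L library and were tested through I172G alone. Among them, kl-3, a dynein heavy chain of the sperm tail that was singled out after its values were seen, had 74.1 to 148 normalised counts in I172G, against 0 to 0.94 in P223L.

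General germline genes were called at shares near or under the background. Of 12 tested, 5 were higher (41.7%) and 3 lower (25%), with a median of -0.09 (3 higher and 6 lower with equal library sums). Over all tested genes, 42.9% were higher and 38% lower. bgcn, which acts in germ cell differentiation, had a log2 fold change of 2.23 ± 0.22, nos (nanos) one of -1.48 ± 0.22, and the piRNA gene piwi did not pass the test at -0.06 ± 0.18. Of 10 dosage compensation and sex determination genes, 2 were higher and 6 lower. dsx (doublesex), the switch of somatic sex, had 645, 699, 704, 642 and 711 normalised counts in I172G larvae, against 31.7, 36.9, 39, 40.2 and 37.7 in P223L larvae. All I172G libraries were high, and the lowest I172G library held 16 times the level of the highest P223L library. The male dosage compensation gene msl-2 had 484 to 622 normalised counts in I172G, against 742 to 863 in P223L, a log2 fold change of -0.55 ± 0.07, and the female switch gene Sxl -0.67 ± 0.06. The 3 yolk protein genes, fat body products of adult females that were measured here in larvae, were all higher. Yp2 had 557 to 1441 normalised counts in I172G, against 0 to 6.3 in P223L, and Yp1 had 124 to 790.1 normalised counts in I172G, against 1.11 to 7.27 in P223L. All 3 stayed below 10 in every P223L library, so they were tested because of their level in I172G.

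Genes of the nervous system were lower in I172G. Of 25 synaptic and pan-neuronal genes, 24 (96%) were lower, against 38% of all genes, none was higher, and the median was -2.34. VGlut, the glutamate transporter of motor neuron vesicles, had 331, 313, 323, 324 and 355 normalised counts in I172G larvae, against 1862, 1983, 1990.2, 2033 and 2104 in P223L larvae. The lines did not overlap, and the log2 fold change was -2.60 ± 0.05 (SE), with a limma adjusted p = 6.91e-13. The same direction was seen for Gad1, which makes the transmitter GABA (211 to 261 normalised counts in I172G, against 1444 to 1625 in P223L), for VAChT, the vesicular acetylcholine transporter (254 to 309.8 normalised counts in I172G, against 1399 to 1589.7 in P223L), and for Rim, a protein of the active zone (231 to 266 normalised counts in I172G, against 1629 to 2121 in P223L). elav and Syt1 were singled out after their values were seen. elav, an RNA-binding protein of all neurons, had a log2 fold change of -0.86 ± 0.06, smaller than the list's median, and the vesicle calcium sensor Syt1 was the member that did not pass, with 4449.7 ± 338 normalised counts in I172G and 4457 ± 378 in P223L (SD, n = 5).

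Neuropeptide genes followed, with 26 of 30 tested members lower, 2 higher and a median of -1.58. sNPF, a feeding peptide, had 63.5, 75.8, 80.4, 69.7 and 68.9 normalised counts in I172G larvae, against 739, 723, 630.2, 669 and 688 in P223L larvae. In each line the libraries lay close together, and the highest I172G library lay below the lowest P223L library, which held 7.84 times its level. Its log2 fold change was -3.25 ± 0.08 (SE), with a limma adjusted p = 4.79e-12. Dh31, a diuretic hormone, had 90.6 to 144 normalised counts in I172G, against 851 to 954 in P223L, and Nplp1 139 to 187 normalised counts in I172G, against 757 to 848 in P223L. Both members that were higher were insulin-like peptides of the brain, Ilp5 at 1.89 ± 0.21 and Ilp3, whose libraries overlapped between the lines. Ilp2, made in the same cells and singled out after its values were seen, had 70.3 ± 11.6 normalised counts in I172G and 71.7 ± 20.1 in P223L (SD, n = 5) and did not pass the test (limma adjusted p = 0.993). Glial genes were split: of 8 tested, 4 were lower, among them repo, the transcription factor of most glia, at -1.39 ± 0.09, and 2 higher, with wrapper, a midline glia gene, at 1.14 ± 0.20.

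Muscle genes were higher in I172G for 21 of 24 tested members (87.5%), with none lower and a median of 0.93 (17 higher and 2 lower with equal library sums). Act87E, a muscle actin, had 35935, 40707, 36982, 36582 and 34566 normalised counts in I172G larvae, against 5254, 5171, 4559, 4339 and 5416 in P223L larvae. The lines did not overlap: the lowest I172G library held 6.38 times the level of the highest P223L library. The Z-disc LIM protein gene Mlp84B had 32709 to 39068 normalised counts in I172G, against 8522 to 10322 in P223L, a log2 fold change of 1.99 ± 0.06 (SE), with a limma adjusted p = 2.62e-11. Of hemocyte and basement membrane genes, 12 of 18 were higher and 1, SPARC, was lower at -0.31 ± 0.07 (9 higher and 7 lower with equal library sums). The 2 prophenoloxidase genes of crystal cells, PPO1 and PPO2, had log2 fold changes of 4.58 ± 0.16 and 4.44 ± 0.14. Pxn, a peroxidasin made by plasmatocytes, had 7376, 6966, 8395, 6983 and 9334 normalised counts in I172G larvae, against 848, 900.4, 896, 721 and 765 in P223L larvae. The I172G libraries were all high, and the lowest I172G library held 7.74 times the level of the highest P223L library.

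**Figure D3:**
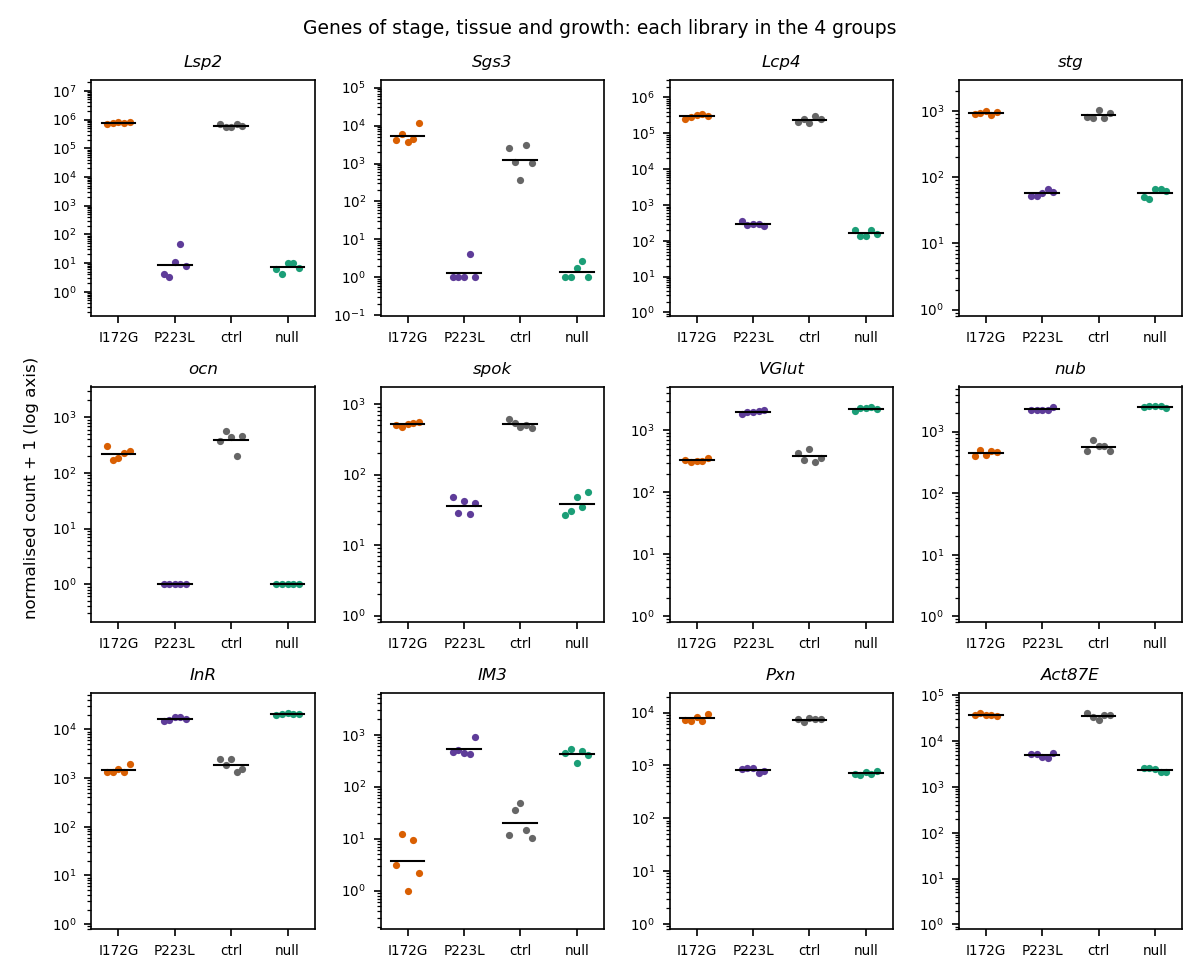
Points are single libraries and bars the mean on the log scale, for 12 genes in I172G, P223L, control (ctrl) and SAMC-null (null) larvae, on log axes of the normalised count plus 1. I172G libraries lie nearer to control than P223L libraries do, and P223L libraries lie near SAMC-null for these genes. Sgs3 averaged higher in I172G than in control. Lsp2, Sgs3, Lcp4, stg, ocn, spok, Pxn and Act87E were higher in I172G than in P223L, while VGlut, nub, InR and IM3 were lower.

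Ecdysone synthesis genes were higher in I172G for 11 of 12 tested members, with a median of 1.71. spok (spookier), an enzyme of the early steps in the prothoracic gland, had 505, 477, 518, 544 and 565 normalised counts in I172G larvae, against 47.4, 27.3, 40.9, 26.8 and 38.8 in P223L larvae. All P223L libraries were low, and the lowest I172G library held 10 times the level of the highest P223L library. The log2 fold change was 3.84 ± 0.15 (SE), with a limma adjusted p = 1.54e-10. The enzymes sro and sad had 5.10 ± 0.14 and 4.03 ± 0.24, and phm, dib and nvd had 2.34 ± 0.14, 1.59 ± 0.25 and 1.83 ± 0.19. The zinc finger gene mld, a regulator of these enzymes, was the member that was lower at -0.57 ± 0.08. Of genes that respond to ecdysone, 15 of 25 were higher and 6 lower. br (broad), the transcription factor of the pupal switch, had 8831 ± 1486 normalised counts in I172G and 1666 ± 229 in P223L (SD, n = 5), and Eip74EF 3353 ± 510.2 normalised counts in I172G and 576 ± 49.7 in P223L. Eip75B, a nuclear receptor induced by ecdysone, was lower with 2554 ± 231 normalised counts in I172G and 7151 ± 481 in P223L, a log2 fold change of -1.49 ± 0.07 (SE), with a limma adjusted p = 3.83e-10. Juvenile hormone genes were split evenly, with 7 higher and 7 lower. The hydrolase Jheh2, which degrades juvenile hormone, had 5045 to 8704 normalised counts in I172G, against 1131 to 1384 in P223L, and Hmgs, an early enzyme of the mevalonate pathway, 1539 to 1953 normalised counts in I172G, against 5128 to 5555 in P223L.

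Insulin and starvation genes were lower in I172G for 13 of 20 members and higher for 5 (median -0.61). InR, the insulin receptor, had 1347, 1309.9, 1518, 1345 and 1983 normalised counts in I172G larvae, against 15073, 15631, 17842, 17738 and 16464 in P223L larvae. I172G replicate 5 was the highest of its line, yet the highest I172G library lay below the lowest P223L library, which held 7.6 times its level. This gave a log2 fold change of -3.48 ± 0.10 (SE), with a limma adjusted p = 1.33e-11. ImpL2, a secreted binding protein of insulin-like peptides, had 708 to 1064 normalised counts in I172G, against 4467 to 5463 in P223L. Thor, the 4E-BP that restrains translation when insulin signalling is low, had 618 to 1039.6 normalised counts in I172G, against 2766 to 3866 in P223L. chico, the insulin receptor substrate, had a log2 fold change of -1.11 ± 0.06. AkhR, the receptor of the glucagon-like hormone, was higher at 1.33 ± 0.08. Autophagy genes were lower for 11 of 20 and higher for 5, with the initiating kinase gene Atg1 at -1.63 ± 0.10 and Atg101 at -1.84 ± 0.10 (0 higher and 15 lower with equal library sums).

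Most genes of the tissue damage and JNK list were lower in I172G. Of 18 members, 14 were lower and 3 higher, with a median of -1.09 (1 higher and 14 lower with equal library sums). puc, the phosphatase that is both target and inhibitor of JNK, had 1061, 1235, 1072, 1100.0 and 1089 normalised counts in I172G larvae, against 3855, 3779, 3674, 3949 and 3955 in P223L larvae. The groups did not overlap, with 2.98-fold between the lowest P223L and the highest I172G library, and the log2 fold change was -1.79 ± 0.05 (SE), with a limma adjusted p = 7.27e-12. The growth arrest gene Gadd45 had 124 to 182 normalised counts in I172G, against 1169 to 1437 in P223L, and chinmo, a transcription factor of immature tissue states, 3313 to 3505 normalised counts in I172G, against 15560.2 to 18470.0 in P223L. Singled out after its values were seen, upd3, a cytokine of wounds, had 2.27 to 19.7 normalised counts in I172G, against 283 to 353 in P223L. The cytokine gene upd1 went the other way at 1.46 ± 0.32. Of the ATF4 list, which covers amino acid stress and serine synthesis, 6 of 13 were lower and 4 higher, so that list was split (2 higher and 8 lower with equal library sums). trbl (tribbles) was at -1.21 ± 0.06 and AsnS, asparagine synthetase, at 1.88 ± 0.11.

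Antimicrobial peptides were lower in I172G for 18 of 25 tested members, of 32 in the tables, and higher for 4. Of the tested members, 4 stayed below 10 in every I172G library and 2 in every P223L library, so these had to differ. IM3 (BomS3 in the annotation), a short secreted peptide of the Toll pathway, had 2.16, 11.1, 0, 8.38 and 1.18 normalised counts in I172G larvae, against 459, 513, 435, 429.6 and 893 in P223L larvae. I172G libraries were at or near 0, while P223L replicate 5 stood above the other P223L libraries. Its log2 fold change was -7.11 ± 0.58 (SE), with a limma adjusted p = 1.24e-07. CG15068 (BomS6 in the annotation) had 0 to 3.34 normalised counts in I172G, against 787 to 924 in P223L, among the 10 largest decreases. DptB, a diptericin of the Imd pathway, had 12.6 to 51.7 normalised counts in I172G, against 324 to 692 in P223L, and AttD, an attacin, 27.3 to 80.2 normalised counts in I172G, against 3.07 to 13.9 in P223L in the other direction. Both tested Turandot stress genes were higher, TotA with 2733 to 7161 normalised counts in I172G, against 3 to 8.56 in P223L and TotC with 18.7 to 46 normalised counts in I172G, against 0 to 3.09 in P223L, and both were below 10 in every P223L library.

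Heat shock genes of the cytosol were split. Of 19, 10 were lower and 8 higher (4 higher and 12 lower with equal library sums). The constitutive chaperone Hsc70-4 had 66718 to 75141 normalised counts in I172G, against 142142 to 149746 in P223L, a log2 fold change of -1.05 ± 0.06 (SE), with a limma adjusted p = 2.95e-09. Hsp70Ab, an inducible copy singled out after its values were seen, had 289 to 1923 normalised counts in I172G, against 2396 to 10538 in P223L, though the Hsp70 copies are near-identical and share reads. Hsp68 and Hsp67Ba were higher, at 1.35 ± 0.10 and 4.13 ± 0.34. Detoxification families lay near the background. Of 83 tested cytochrome P450 genes, 41 were higher and 31 lower (35 higher and 41 lower with equal library sums), and of 34 glutathione S-transferases, 13 were higher and 13 lower (10 higher and 20 lower with equal library sums).

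Ribosome genes were lower in I172G, by small amounts. Of 91 cytosolic ribosomal protein genes, 81 (89%) were lower and 7 higher, with a median of -0.31 (4 higher and 84 lower with equal library sums). RpL24-like, which has a known role in making the large subunit, had 1112 to 1235 normalised counts in I172G, against 6312 to 6857 in P223L. The ones that were higher include RpL22-like and RpL10Aa. RpL22-like, a germline copy, had 142 to 189.9 normalised counts in I172G, against 38.4 to 52 in P223L, and RpL10Aa had 21.1 to 36.4 in I172G and was listed at 0 in P223L. All 26 ribosome biogenesis factors were lower, with a median of -0.74. CG4364, the fly pescadillo, had 2860.0, 2915, 3029, 2940.1 and 3046 normalised counts in I172G larvae, against 13647, 13888, 13158, 14183 and 13492 in P223L larvae. P223L libraries were all high, with 4.32-fold between the lowest of them and the highest I172G library, and the log2 fold change was -2.21 ± 0.04 (SE), with a limma adjusted p = 2.51e-13. RpI135, the second largest subunit of RNA polymerase I, had -1.23 ± 0.07. Of 35 aminoacyl-tRNA synthetase genes, 24 were lower and 6 higher, with the mitochondrial LeuRS-m at -1.09 ± 0.07 (2 higher and 31 lower with equal library sums). Proteasome subunits moved the other way, with 43 of 46 higher, none lower and a median of 1.16 (43 higher and 1 lower with equal library sums). Of the 46, 7 stayed below 10 in every P223L library and so had to differ. The regulatory particle genes Rpn1, Rpn5, Rpt1 and Rpt4 had 1.15, 1.16, 1.17 and 1.17.

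Ribosomal RNA that remained after depletion differed as well. The 3 annotated rRNA genes held 3.56 ± 0.13% of the summed counts in I172G and 6.23 ± 0.47% in P223L (SD, n = 5). The gene 28SrRNA-Psi:CR41609, a pseudogene of 28S rRNA, had 951, 208, 182, 205 and 239 normalised counts in I172G larvae, against 354819.6, 334429, 447695, 423275 and 223358 in P223L larvae. It gave the largest decrease of the comparison, at -10.26 ± 0.39. In control it averaged 577 ± 581 and in SAMC-null 27918 ± 11705. Copies of rRNA share sequence, so the copies from which these reads came cannot be told apart.

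Genes of mitochondria did not move as 1 group. Iron-sulfur cluster assembly genes were lower in I172G in all 10 tested members, with a median of -1.20, and for each of them the lines did not overlap. Over all tested genes, 38% were called lower, and 33% had every I172G library below every P223L library. IscU, the scaffold on which clusters are built, had 1094, 1289, 1274, 1157 and 1039 normalised counts in I172G larvae, against 3108, 2775, 2618, 2755 and 2645 in P223L larvae. The 2 lines did not overlap, at a log2 fold change of -1.25 ± 0.07 (SE), with a limma adjusted p = 3.21e-09. CG12264, the cysteine desulfurase that supplies the sulfur, had 1005 to 1377 normalised counts in I172G, against 2833 to 3413 in P223L, and its partner bcn92 (Isd11) 188 to 208 normalised counts in I172G, against 392 to 476 in P223L. The ferredoxins Fdx1 and Fdx2 had -1.61 ± 0.13 and -1.26 ± 0.06, and fh, the fly frataxin, -0.51 ± 0.11. All members were thus on the same side, with levels in I172G near those in control for those named next. In control, IscU averaged 1273 ± 91.9 and Fdx2 837 ± 104 (SD, n = 5).

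Mitochondrial chaperones and proteases were lower for 13 of 14 members, with a median of -1.04. Hsp22, the small heat shock protein of the matrix, had 237, 367, 209, 266 and 193 normalised counts in I172G larvae, against 9779.7, 9258, 9646, 9699.7 and 9965 in P223L larvae. P223L libraries lay within a narrow range, and the highest I172G library lay below the lowest P223L library, which held 25.2 times its level. The log2 fold change was -5.28 ± 0.14 (SE), with a limma adjusted p = 4.48e-12. The matrix protease Lon had 1300.2 to 1653 normalised counts in I172G, against 3343 to 3635 in P223L, the chaperone Trap1 1049.8 to 1198 normalised counts in I172G, against 2369 to 2708 in P223L, and CG2658 (Spg7 in the annotation), a protease of the inner membrane, 951 to 1125 normalised counts in I172G, against 2370.2 to 2599 in P223L. The import gene Tim17b was the member that was higher, at 0.27 ± 0.07, though its libraries overlapped between the lines and it was lower, at -0.17, with equal library sums.

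Of 5 nuclear genes listed for mitochondrial enzymes that use SAM and their relatives, 3 were lower and none higher. Las, lipoate synthase, had 395, 439, 447, 371 and 385 normalised counts in I172G larvae, against 713, 647, 579.9, 606 and 634 in P223L larvae. The ranges did not overlap, with a log2 fold change of -0.64 ± 0.07 (SE), with a limma adjusted p = 4.19e-06. mtTFB1, an rRNA methyltransferase of mitochondria, had -0.82 ± 0.07, and CG2453, the fly COQ5 methyltransferase of coenzyme Q synthesis, -0.80 ± 0.11. CG9249, the fly COQ3, and mtTFB2, a mitochondrial transcription factor related to methyltransferases, had -0.19 ± 0.13 and -0.16 ± 0.13 and did not pass the test (limma adjusted p = 0.213 and 0.266), though both were called lower with equal library sums.

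Transcripts made in mitochondria were lower for 6 of 11 mRNAs and higher for 1, with a median of -0.29 (0 higher and 10 lower with equal library sums). mt:ATPase8, a subunit of ATP synthase, had 15613, 22507, 19404, 20645 and 16825 normalised counts in I172G larvae, against 38469, 41857, 37901, 35522 and 38183 in P223L larvae. I172G replicate 2 was the highest of its line and still below every P223L library, and the log2 fold change was -1.03 ± 0.09 (SE), with a limma adjusted p = 3.28e-07. mt:Cyt-b, of complex III, had 31638 to 48680.0 normalised counts in I172G, against 70213 to 90055 in P223L, at -0.96 ± 0.11. Of complex I, mt:ND4L and mt:ND3 were lower at -0.75 ± 0.11 and -0.73 ± 0.18, mt:ND1 was higher at 0.23 ± 0.09, a call lost without I172G replicate 2, 3 or 4 or P223L replicate 3, 4 or 5 and turned to -0.22 with equal library sums, and mt:ND2 and mt:ND6 did not pass at 0.06 ± 0.17 and 0.18 ± 0.25. Of complex IV, mt:CoI was lower at -0.33 ± 0.10, while mt:CoII had 0.11 ± 0.08 and mt:CoIII -0.14 ± 0.09, neither past the test. Neighbouring mitochondrial genes are cut from shared precursors, and how reads over them were assigned is not given in the sources used here. Mitochondrial ribosomal protein genes, all nuclear, were lower for 52 of 73 and higher for 3 (1 without I172G replicate 2 or 4, 5 without I172G replicate 5; 0 higher and 71 lower with equal library sums), with a median of -0.41. mRpL37 and mRpS28 had -1.06 ± 0.08 and -1.17 ± 0.09.

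**Figure D4:**
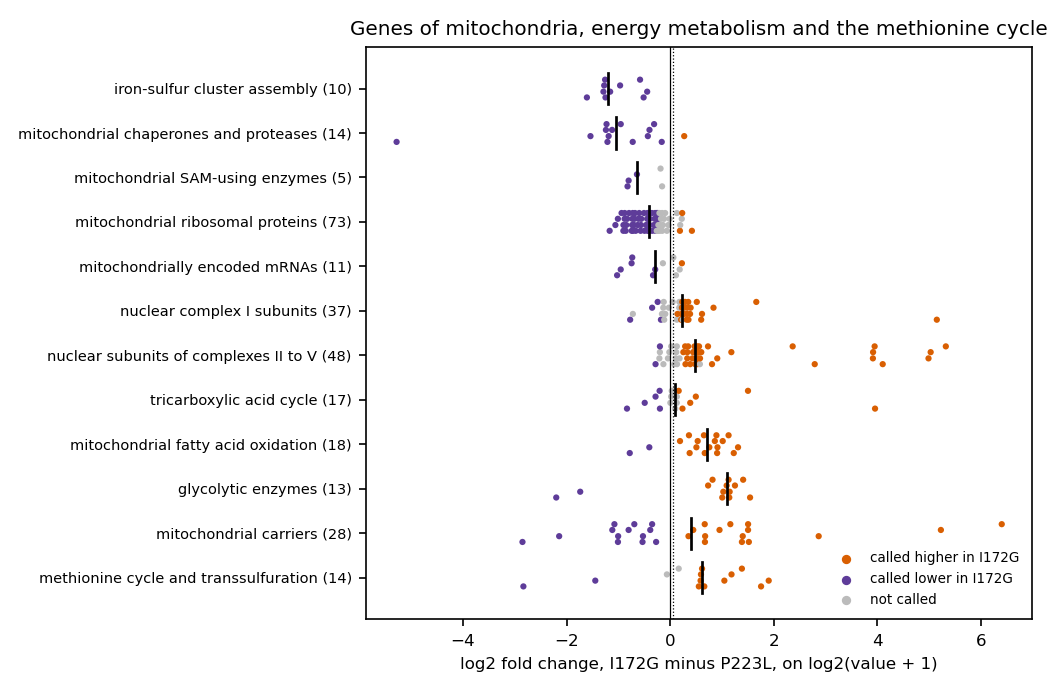
Each point is a tested gene at its log2 fold change, I172G minus P223L, in 12 gene lists (number tested in brackets), coloured by its call, with a black bar at the list's median and a dotted line at the median of all tested genes. All iron-sulfur cluster genes lie left of 0, as do the medians of the chaperone and mitochondrial ribosome lists, while the medians of the respiratory chain, fatty acid oxidation and glycolytic lists lie right of it, those of complex I only on this scale and not with equal library sums.

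The direction of the nuclear subunits of the respiratory chain depended on the scale. Of 37 tested complex I subunits, 21 were higher (56.8%) and 4 lower (7 with all 4 groups in 1 fit), with a median of 0.23, and of 48 subunits of complexes II to V, 33 were higher (68.8%) and 2 lower (4 without I172G replicate 2 or 3, or with all 4 groups in 1 fit), with a median of 0.48. With equal library sums, complex I had 4 higher and 23 lower and a median of -0.22, and complexes II to V had 13 higher and 15 lower and a median of 0.03. Complex I subunits made up 0.272 ± 0.0187% of the summed normalised counts in I172G and 0.355 ± 0.0244% in P223L, and subunits of complexes II to V 1.09 ± 0.0888% of the summed normalised counts in I172G and 1.27 ± 0.0725% in P223L (SD, n = 5). ND-MLRQ, a small complex I subunit, had 5639 to 7514 normalised counts in I172G, against 3196 to 4437 in P223L, and COX7A, of complex IV, 6898 to 8900.3 normalised counts in I172G, against 4312 to 4961 in P223L. ND-51, the subunit that holds the flavin of complex I, was lower with 4687 to 5647 normalised counts in I172G, against 8419.7 to 9722 in P223L, a log2 fold change of -0.77 ± 0.06 (SE), with a limma adjusted p = 8.41e-08, and SdhB, an iron-sulfur subunit of complex II, at -0.28 ± 0.06. The far right points are extra copies: ATPsynbetaL had 66.8 to 125 normalised counts in I172G, against 0.939 to 3.31 in P223L, and ND-20L and ATPsynGL were listed at 0 in all P223L libraries. Of these lists, 1 and 9 members stayed below 10 in every P223L library.

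Tricarboxylic acid cycle genes were split, with 6 of 17 higher (35.3%) and 5 lower (29.4%) (2 higher and 13 lower with equal library sums). Over all tested genes, 42.9% were higher and 38% lower. kdn, citrate synthase, was lower at -0.83 ± 0.08, Nc73EF, a 2-oxoglutarate dehydrogenase subunit, at -0.49 ± 0.05, and Sucb, a succinyl-CoA ligase subunit, higher at 1.50 ± 0.08. Of 13 glycolytic genes, 11 were higher, with a median of 1.09, and both that were lower were hexokinases. PyK, pyruvate kinase, had 33485 to 39461 normalised counts in I172G, against 16672 to 18609 in P223L, at 1.09 ± 0.06, and Hex-A had 2170.2 to 2797 normalised counts in I172G, against 7892 to 8405 in P223L, at -1.74 ± 0.06. Of 18 fatty acid oxidation genes, 16 were higher, with Mtpalpha, of the trifunctional protein, at 0.91 ± 0.05 (11 higher and 3 lower with equal library sums). whd, the carnitine palmitoyltransferase that admits fatty acids to mitochondria, was lower at -0.78 ± 0.15. Subunits of the vacuolar proton pump were higher for 12 of 24 (50%) and lower for 5 (20.8%) (7 higher and 16 lower with equal library sums). Of the 24, 3 stayed below 10 in every P223L library and so had to differ.

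Enzymes of the methionine cycle differed in opposite directions. Of 14 genes of the cycle and of transsulfuration, 10 were higher and 2 lower (7 higher and 4 lower with equal library sums). Sam-S, the enzyme that makes SAM from methionine and ATP, had 7892, 7720.0, 7877, 8302 and 8890.5 normalised counts in I172G larvae, against 21777, 21674, 21825, 23618 and 21883 in P223L larvae. I172G libraries were all low, and the highest I172G library lay below the lowest P223L library, which held 2.44 times its level. The log2 fold change was -1.45 ± 0.05 (SE), with a limma adjusted p = 3.59e-11. Control libraries averaged 15522 ± 2589.9, between the lines. Cbs, cystathionine beta-synthase, which removes homocysteine into transsulfuration, had 718, 745, 721, 673 and 501 normalised counts in I172G larvae, against 4678, 4758, 4640.1, 4905 and 4759 in P223L larvae. I172G replicate 5 was the lowest library, and the ranges were 6.23-fold apart. Cbs had a log2 fold change of -2.83 ± 0.09 (SE), with a limma adjusted p = 2.57e-11. CG10621, a homocysteine methyltransferase, had 6076, 8221, 6042, 6503 and 5671 normalised counts in I172G larvae, against 1896, 1902, 1964, 1886 and 1911 in P223L larvae. Here I172G was the higher line, at 1.75 ± 0.08 (SE), with a limma adjusted p = 6.6e-10, and P223L libraries lay inside the range of the control libraries, which averaged 1893 ± 1132. The related CG10623 had 1.38 ± 0.07. Gnmt and Ahcy were singled out after their values were seen. Gnmt, which consumes SAM by methylating glycine, had 4673 to 6909.6 normalised counts in I172G, against 1434 to 1682 in P223L, at 1.90 ± 0.10, and Ahcy, which splits S-adenosylhomocysteine, had 5238 to 8042 normalised counts in I172G, against 5632 to 6081 in P223L and did not pass the test (limma adjusted p = 0.102), though it did without I172G replicate 5 (limma adjusted p = 0.00524), and it was lower with equal library sums, at -0.28 (limma adjusted p = 0.00303).

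Of 28 tested mitochondrial carriers, all were called, 15 higher and 13 lower (12 higher and 14 lower with equal library sums). Of the carriers, 3 stayed below 10 in every P223L library. MME1, a magnesium exporter of mitochondria, had 88.4, 105, 105, 82.8 and 86.9 normalised counts in I172G larvae, against 681, 650.4, 658, 680.4 and 723 in P223L larvae. The lines did not overlap, with 6.2-fold between the nearest libraries, and the log2 fold change was -2.85 ± 0.09 (SE), with a limma adjusted p = 1.39e-11. Shawn, a carrier studied at synapses, had 228 to 259 normalised counts in I172G, against 979 to 1226 in P223L. GC1, a glutamate carrier, had 1951 to 2211 normalised counts in I172G, against 687 to 784 in P223L, at 1.50 ± 0.05. Dic2, a dicarboxylate carrier, had 45.1 to 119 normalised counts in I172G and was listed at 0 in P223L.

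**Figure D5:**
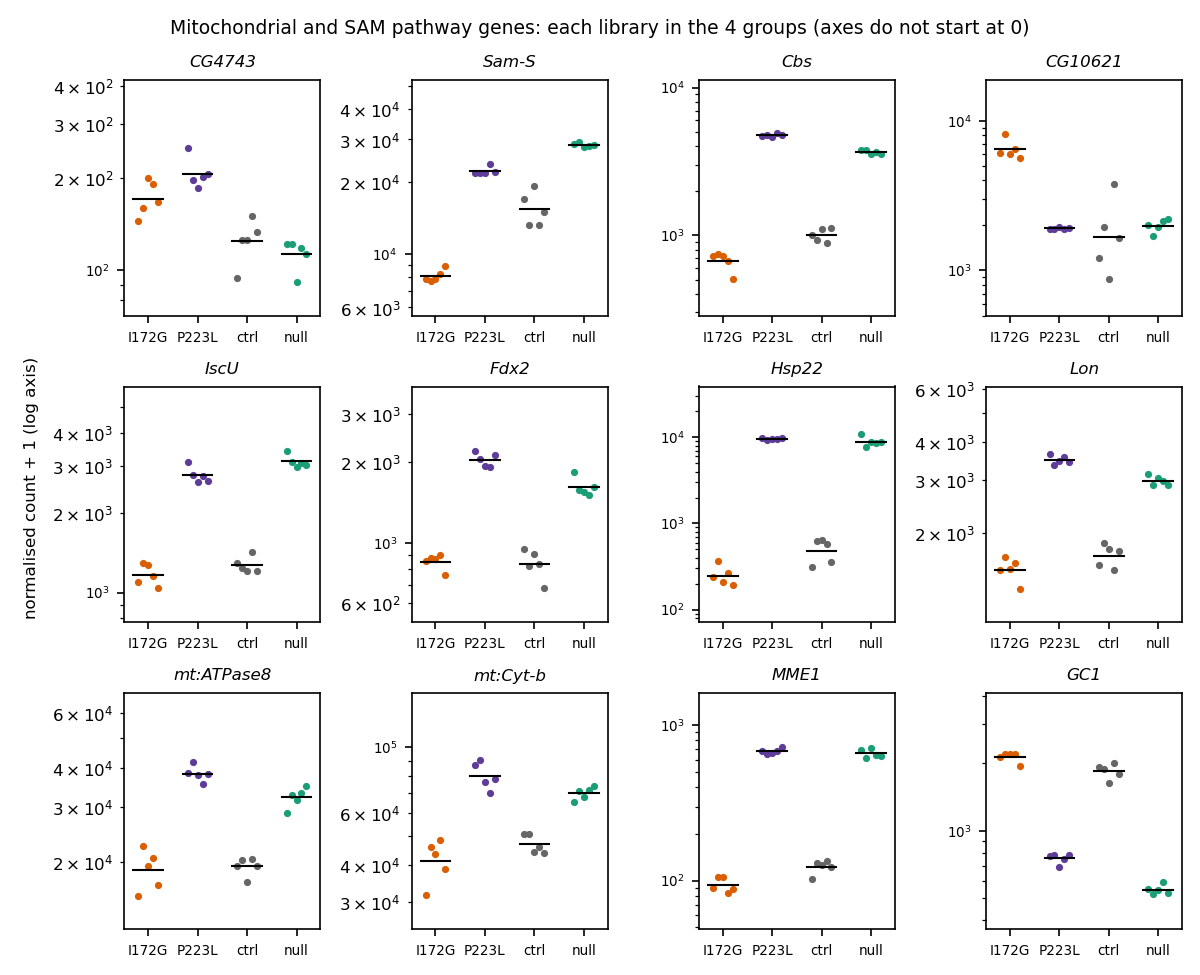
Points are single libraries and bars the mean on the log scale for 12 genes, on log axes of the normalised count plus 1 that do not start at 0. Sam-S and Cbs are lower in I172G than in every other group shown, CG10621 is higher in I172G than in every other group, and IscU, Fdx2, Hsp22, Lon and mt:ATPase8 lie near control in I172G.

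Control and SAMC-null libraries were set beside the 2 lines as a description, since the called genes were chosen on I172G and P223L. On the log2 scale, the control mean was nearer to I172G for 8294 of the 9725 called genes (85.3%), and the SAMC-null mean was nearer to P223L for 8822 (90.7%). Control lay between the lines for 57.4%, beyond I172G for 38.6% and beyond P223L for 4.03%. Among genes with at least a 2-fold difference, control was nearer to P223L for 142 of the 2724 that were higher in I172G and for 186 of the 1911 that were lower. The following genes of that kind were singled out after their values were seen. CG13670 had 274 ± 95.5 normalised counts in I172G and 0.653 ± 0.596 in P223L (SD, n = 5), with 1.1 ± 0.0957 in control. Bace, which the annotation names after the aspartyl protease beta-secretase, had 119.6 ± 95.1 normalised counts in I172G and 13624 ± 953 in P223L, with 1353 ± 506 in control. Lip3, a lipase, had 64.7 ± 48.1 normalised counts in I172G and 1689 ± 171 in P223L, with 1010.2 ± 1089 in control. CG17906 had 4.84 ± 3.86 normalised counts in I172G and 110.2 ± 5.07 in P223L, with 103 ± 98.6 in control. On the log2 scale the P223L mean was nearer to the control mean than the I172G mean was. For Bace the distances were similar, with log2 fold changes from control of -3.68 in I172G and 3.40 in P223L.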

How the data were processed

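Whole-larva total RNA, depleted of ribosomal RNA, was sequenced in read pairs of 75 bases, per the labels' protocols. Salmon 0.11.3, DESeq2 1.26.0 and BDGP6 are named in the submitters' processing notes. Each mutant line has 1 deposited table with the controls, whose signal columns hold 1 normalised count per gene and library. Control columns differ by at most 0.005 between tables, so the values share 1 scale and were joined by gene identifier. Only 52.8 to 78% of low values (20 steps or fewer) in a compared library lay within 0.1 step of a whole number of reads, so no count test was run. By that step, libraries held roughly 29825303 to 32967498 reads in I172G and 23481253 to 26538667 in P223L. The labels state a far smaller read number per sample, and the difference was not resolved. Precision is limited by sequencing depth and by 5 libraries a line.

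Symbols are those in the deposited tables (13787 genes), and 13854 genes matched the Ensembl release 115 annotation (BDGP 6.54), the source of coordinates. The 12029 genes reaching 10 in 5 or more of the 10 libraries were fitted as log2(value + 1), I172G minus P223L, with limma 3.58.1 (intensity trend) in R 4.3.3. Tests were two-sided, with Benjamini-Hochberg adjustment over all tested genes and a threshold of 0.05. Gene lists are given by counts and medians. The members and the 53 lists were chosen with earlier results of these data known, and 27 of 720 list entries matched no gene.

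Named genes are the carrier, the 10 largest changes each way with a mean of at least 50 and no overlap of the lines, up to 5 genes at 0 in 1 line, up to 4 members per list by smallest adjusted p with 1 called the other way, and members of lists of up to 12. Any other gene is marked as chosen after its values were seen. The fit was also run on simulated independent values in which few genes changed. These differ from the compared lines, so no conclusion was drawn from that run. Pseudocounts of 0.5 and 4, a filter of 50 or none, rescaling by median ratios, leaving out each library, a replicate block, 1 fit of all 4 groups and limma's treat against a 2-fold change were tried as alternatives, and, added after seeing the data, division of each library by its summed counts. Python 3.11.15 was used with pandas 2.3.3 and numpy 2.4.6, and figures were drawn in matplotlib 3.10.9.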

Additional observations from a re-analysis of the deposited data

Results flagged for a closer look

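For 184 named genes, the 5 libraries of each line were searched for 1 that stood far from the other 4, by Dixon's test at the 95% level. Of 368 sets of 5 libraries, 34 had such a library, 16 in I172G and 18 in P223L. For normally distributed values chance flags about 1 in 20 sets, and the genes of a library are not independent. That rate does not hold where the other 4 libraries held no counts, since any count in the remaining library is then flagged. In P223L this was so for CG17105, Lcp9, Eig71Ee, Sgs3 and S-Lap7. The library that stood apart most often was I172G replicate 5, with 8, followed by P223L replicate 4, with 7. The count for P223L replicate 4 includes Lcp9, Eig71Ee and Sgs3, so it rests partly on such sets. Values below are normalised counts, with the range of the other 4 libraries in brackets.

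I172G replicate 1 had 951 for 28SrRNA-Psi:CR41609 (182 to 239), 3913 for CG34193 (4.77 to 16.8) and 105 for fh (121 to 126). I172G replicate 2 had 18.3 for TwdlO (1.13 to 4.39), 66.8 for ATPsynbetaL (108 to 125) and 1235 for puc (1061 to 1100.0). I172G replicate 3 had 11525 for Nc73EF (9869 to 10328). I172G replicate 4 had 223.2 for mt:ND2 (154 to 171). I172G replicate 5 had 393563 for Fbp1 (103830.0 to 187036), 11750.4 for Sgs3 (3585 to 5861), 1049.8 for Trap1 (1176 to 1198) and 1138 for chico (933 to 992). It also had 1465 for Atg1 (966 to 1038), 288 for Bace (56 to 98), 1923 for Hsp70Ab (289 to 440.0) and 149.9 for Lip3 (34.7 to 51.8). P223L replicate 1 had 3413 for CG12264 (2833 to 2969), 1081 for LeuRS-m (997 to 1018), 18609 for PyK (16672 to 17188) and 1434 for Gnmt (1636 to 1682). P223L replicate 2 had 489 for AkhR (404 to 428). P223L replicate 3 had 4.34 for Twdlbeta (0 to 1.09) and 1.09 for S-Lap7 (all 0). P223L replicate 4 had 44.7 for Lsp2 (2.23 to 9.83), 16.5 for Obp99b (1.08 to 3.25), 4.09 for Lcp9 (all 0) and 157 for Lsp1gamma (52.8 to 64.9). It also had 1.03 for Eig71Ee (all 0), 3.1 for Sgs3 (all 0) and 23618 for Sam-S (21674 to 21883). P223L replicate 5 had 1.07 for CG17105 (all 0), 2542 for nub (2213 to 2247), 893 for IM3 (429.6 to 513) and 692 for DptB (324 to 418).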

How the results depend on the processing

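Apart from equal library sums, limma's treat against 2-fold was the setting that moved the counts of called genes by more than 1.5 times, with 2170 genes higher in I172G and 1342 lower. Setting all libraries to the same sum, added after seeing the data, gave 3405 genes higher and 6775 lower, and 2090 and 3077 of at least 2-fold. Among named genes past the test it turned Tim17b (-0.17) and mt:ND1 (-0.22); of those that did not pass, mt:ND2 (-0.38), mt:ND6 (-0.24), mt:CoII (-0.33), Ahcy (-0.28) and Ilp2 (-0.43) changed sign. With equal library sums piwi, mt:CoIII, CG9249, mtTFB2 and Syt1 were called lower, and the other 171 named genes kept direction and side of the threshold. Leaving out 1 library gave 5038 to 5146 genes higher and 4448 to 4576 lower. Same-numbered libraries did not deviate together (correlations of -0.099 to 0.028), so the numbers were not read as pairs; a replicate block gave 5053 genes higher and 4465 lower, and among named genes it changed the calls of CG4743, fzo and mt:ND1. Of 3097 pairs of a named gene and one of these settings other than treat, 3057 kept direction and side of the threshold. Most named genes were chosen for a small adjusted p or a large change in these data. That choice favours such agreement, here and with equal library sums. Under these settings the sign changed for 5 genes, none past the test: leaving out 1 library gave log2 fold changes of -0.14 to 0.16 for topi, -0.16 to 0.060 for piwi, -0.047 to 0.15 for mt:ND2, -0.13 to 0.13 for Ilp2 and -0.041 to 0.039 for Syt1, and rescaling gave -0.0017 for Ilp2. Of 1802 list counts under these settings, 18 moved by more than 1.5 times and by more than 1 gene. Of these 18, 8 moved with the filter of 50, which tests fewer genes. Equal library sums moved 28 more. With the filter of 50, 9 Cpr genes were lower. It also left 9 mitochondrial carriers, 7 proton pump subunits, 4 ribosomal proteins, 3 insulin and starvation genes, 2 spermatocyte regulators, no neuropeptide gene and no antimicrobial peptide called higher. With no filter, 11 Tweedle and 2 Turandot genes were lower. Depth limits what can be said of genes near 0, whose fold changes depend on the pseudocount.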
